A study of Mus musculus with 6 samples.

Results

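Potassium channel genes were taken as every deposited Entrez gene ID whose RefSeq symbol begins with Kcn. Kcnq1, the noncoding Kcnq1ot1 and 3 antisense or opposite-strand genes were left out, so 93 of the 98 such symbols remained, among 27179 gene IDs in the files. By role the 93 comprised 39 voltage-gated subunits, 15 inward rectifiers, 14 leak channels of the K2P family, 8 calcium- or sodium-activated channels and 17 auxiliary subunits and regulators. RNA was sequenced from cultured neural stem cells that had been derived from brains of male E14.5 mouse embryos, on the strain background labelled C57BL/6 x FVB/N. The wild type group held 3 libraries, and the other group held 3 libraries homozygous for the MommeD1 allele of Smchd1, labelled Smchd1 null. Cells of both groups grew on polyornithine and laminin in medium that held 20 ng/ml of each of the growth factors EGF and bFGF. Smchd1 encodes a chromosomal protein that takes part in gene silencing, and the comparison asked which genes differ when it is missing. The labels do not say whether replicates came from separate embryos, so p-values reflect the spread among these libraries alone, and that spread could be technical.

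Potassium channels let potassium ions leave or enter a cell down their gradient and so set its resting voltage and shape its electrical signals. Voltage-gated channels open on depolarisation, inward rectifiers and K2P channels hold the resting potential, and calcium-activated channels couple voltage to calcium. In the nervous system they are best known in neurons, while inward rectifiers and leak channels are also typical of glia, and proliferating progenitors are known to use several of them.

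Promoter windows are shown for 5 members. Kcnc1, Kcnd3 and Kcna2 had the highest levels among the voltage-gated subunits, and Kcnh5 and Kcna6 were among the subunits with the largest fold changes. Each window runs from 250 bases before to 50 after a RefSeq start site on GRCm38.p6, 5′ to 3′ on the gene's strand, with every CpG dinucleotide in capitals. Kcnc1 encodes a Shaw-type channel of fast firing neurons, and its window (chr7:46396218-46396517, plus strand) held 41 CpGs. The window of Kcnd3, a Shal-type channel of rapidly inactivating A-type current, lay at chr3:105451640-105451939 on the plus strand and held 25. The window of Kcna2, a Shaker-type channel of axons, lay at chr3:107101317-107101616 on the plus strand and held 31. That window lies inside the gene (107090883 to 107115005), not at its 5′ end. The windows of the ether-a-go-go family gene Kcnh5 (chr12:75177283-75177582, minus strand) and of the Shaker-type gene Kcna6 (chr6:126740625-126740924, minus strand) held 17 and 8.
Kcnc1: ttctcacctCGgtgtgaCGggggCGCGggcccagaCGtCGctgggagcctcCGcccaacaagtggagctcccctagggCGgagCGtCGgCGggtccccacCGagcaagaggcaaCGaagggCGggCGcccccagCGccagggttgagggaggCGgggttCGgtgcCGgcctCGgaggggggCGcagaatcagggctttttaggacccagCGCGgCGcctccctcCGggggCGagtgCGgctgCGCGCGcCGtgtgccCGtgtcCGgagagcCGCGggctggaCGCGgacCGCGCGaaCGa
Kcnd3: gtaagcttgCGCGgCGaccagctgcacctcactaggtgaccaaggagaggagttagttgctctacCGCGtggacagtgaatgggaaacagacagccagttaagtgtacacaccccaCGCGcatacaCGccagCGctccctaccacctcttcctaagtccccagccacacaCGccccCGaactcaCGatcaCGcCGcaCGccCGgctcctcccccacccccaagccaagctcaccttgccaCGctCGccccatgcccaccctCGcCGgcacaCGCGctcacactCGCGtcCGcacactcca
Kcna2: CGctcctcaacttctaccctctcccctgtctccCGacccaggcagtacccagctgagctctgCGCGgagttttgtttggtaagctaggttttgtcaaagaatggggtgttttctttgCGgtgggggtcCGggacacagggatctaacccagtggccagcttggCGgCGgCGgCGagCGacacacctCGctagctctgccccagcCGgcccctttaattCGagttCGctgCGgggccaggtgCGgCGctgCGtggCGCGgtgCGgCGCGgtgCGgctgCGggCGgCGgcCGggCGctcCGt
Kcnh5: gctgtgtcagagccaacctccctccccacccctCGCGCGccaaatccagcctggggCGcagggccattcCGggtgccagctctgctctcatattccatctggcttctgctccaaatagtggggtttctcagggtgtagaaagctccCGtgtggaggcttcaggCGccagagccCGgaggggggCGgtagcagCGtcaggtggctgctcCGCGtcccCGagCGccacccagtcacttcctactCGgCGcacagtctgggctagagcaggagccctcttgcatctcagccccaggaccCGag
Kcna6: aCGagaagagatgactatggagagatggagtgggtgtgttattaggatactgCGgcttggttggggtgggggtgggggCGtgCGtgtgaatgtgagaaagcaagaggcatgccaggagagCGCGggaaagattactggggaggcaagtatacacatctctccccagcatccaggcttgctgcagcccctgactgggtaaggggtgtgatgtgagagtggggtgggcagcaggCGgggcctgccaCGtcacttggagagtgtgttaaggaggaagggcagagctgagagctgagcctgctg

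A RefSeq window was matched for 69 of the 93 members, and 54 had a single window. The 28 of these that passed the filter on low counts had a median of 18.5 CpGs and 65.7% G or C, and the 26 that did not had a median of 9 CpGs and 57.5%. Over all 22862 genes with a single window the medians were 7 CpGs and 52.3%. The medians of members with a single window were thus above that of all such genes, tested or not, and highest for the tested members. Single genes such as Kcnrg, with 1 CpG, departed from this. Tested members were not compared with other tested genes, so a trait of tested genes in general cannot be told apart from one of this family. The GC box GGGCGG, searched on both strands, was in 18 of the 28 (64.3%), in 12 of the 26 (46.2%) and in 35.2% of all single windows, and the letters TATAAA were in 2, in 1 and in 14.8%. TTCAGCACC, part of the element bound by the neuronal gene repressor REST, was in 0 of the 28, in 1 of the 26 (Kcnh6) and in 0.359% of all windows. Overlap between matches was not examined, and a match or its absence says nothing about binding.

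A few genes held most of the potassium channel RNA. Levels between genes are given as RPKM, which is CPM (counts scaled to library size by edgeR's TMM factors) per kilobase of the deposited gene length. Over the 6 libraries 30 of the 93 members reached a mean of 1 RPKM, 10 reached 5 and 7 reached 10. The 3 highest members held 38.5% of the summed RPKM, and the 6 highest held 61.6%. Voltage-gated subunits made up 56.6% of the sum and auxiliary subunits 28.0%, followed by inward rectifiers (7.42%), K2P channels (4.67%) and calcium- or sodium-activated channels (3.36%).

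Kcnd3 had the highest mean, 30.1 ± 3.70 RPKM in wild type and 30.4 ± 0.95 RPKM in null (mean ± SD, n = 3). Kcnip3, a calcium-binding auxiliary subunit of Shal-type channels that is also known as a transcriptional repressor, had 24.3 ± 11.4 and 32.9 ± 2.16 RPKM. Kcnc1 had 27.8 ± 1.98 and 28.5 ± 1.14 RPKM. The ranges of Kcnd3, Kcnip3 and Kcnc1 overlapped over the 6 libraries, so their order was not resolved. Kcna2 came next by the mean over all libraries, at 14.4 ± 6.08 RPKM in wild type and 23.8 ± 2.15 in null, and lay below Kcnc1 in 6 of 6 libraries. Kcnd2, the other Shal-type gene tested here, had 14.4 ± 4.16 and 19.8 ± 1.17 RPKM. Kcnmb4, the auxiliary subunit of large-conductance calcium-activated channels best known in brain, had 16.5 ± 0.56 and 15.3 ± 1.68 RPKM, and its range overlapped that of Kcnd2. The ranges of Kcna2 and Kcnd2 overlapped too, and in wild type the mean of Kcnmb4 was above those of both, so the order of these 3 genes was not resolved. Kcnj16, an inward rectifier subunit that pairs with the Kcnj10 product in glia, followed at 8.46 ± 4.19 and 11.6 ± 1.19 RPKM, below Kcnmb4 in every library.

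**Figure D1:**
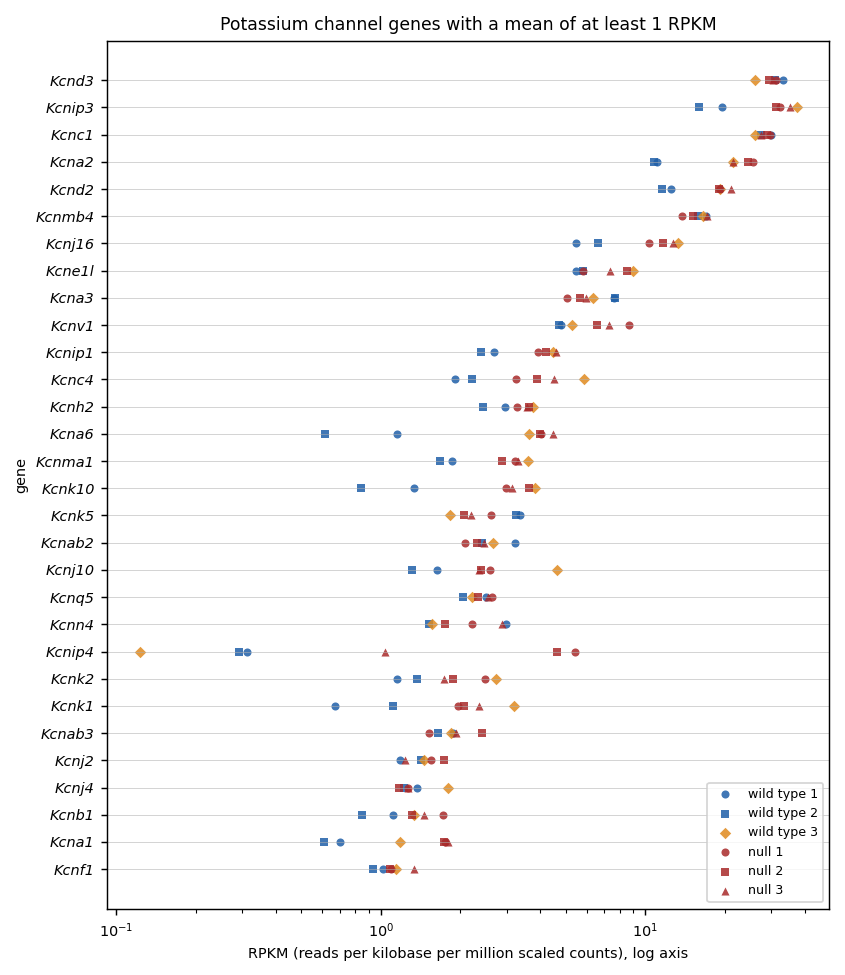
Level of the 30 potassium channel genes with a mean of at least 1 RPKM, in RPKM on a log axis, with 1 point per library (blue for wild type replicates 1 and 2, orange for wild type replicate 3, red for the null libraries). Kcnd3, Kcnc1 and Kcnmb4 had narrow spreads over all 6 libraries, while the orange point lay among or beyond the red ones for Kcnip3, Kcnj16, Kcnk10 and Kcnj10.

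The libraries held between 18608881 and 23253367 counts. Wild type replicate 3 stood apart: a single record without a symbol took 44.6% of its counts, against 2.11% to 5.90% elsewhere, and its effective depth after scaling was 10.1 M counts against 21.3 to 25.8 M. The labels' sample names also number it 14, next to 11, 12 and 13 for the null libraries, while wild type replicates 1 and 2 carry 3-digit numbers, and what these numbers stand for is not given in the labels. Smchd1 had 232 to 271 CPM in the wild type and 27.9 to 31.1 CPM in the null libraries, and the stem cell markers Nes and Sox2 lay at 1154 to 1359 CPM and at 252 to 285 CPM. Reads of the library kit carry no strand, so a gene and an overlapping antisense gene could not be told apart. That touches Kcnmb4 (1048 exonic bases shared with Kcnmb4os1 and Kcnmb4os2) and Kcna6 (2355 bases shared with Gm26673), and less so Kcnd3 (165 bases shared with Kcnd3os).

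No potassium channel gene was called between the genotypes. Of the 93, 55 passed the filter on low counts, and 0 were called higher and 0 lower in null at an adjusted p under 0.05 (edgeR quasi-likelihood test), where 0.577% of the 14207 tested genes were called (0.507% higher and 0.0704% lower). Without adjustment, 14 members were higher and 2 lower (Kcna3 and Kcnk6) at an edgeR p under 0.05. That is 29.1% of the 55 against a background of 18.6% (9.54% higher and 9.05% lower). The 14 comprised 10 of 24 voltage-gated, 2 of 9 auxiliary, 1 of 7 inward rectifier and 1 of 8 calcium- or sodium-activated genes.

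Other fits called more members. DESeq2 called 5 higher, among them Kcna1, Kcnh5, Kcnip4 and Kcnv1, and 0 lower, where 2.82% of all tested genes were called (1.27% higher and 1.56% lower). limma-voom called 3 higher (Kcna1, Kcnh5 and Kcnv1) and 0 lower, against 1.02% of all tested genes (0.816% higher and 0.204% lower). limma-voom with sample quality weights called 26 higher and 3 lower, against 36.8% (19.3% higher and 17.5% lower). With no filter on low counts edgeR called 4 higher (Kcna1, Kcnh5, Kcnh8 and Kcnv1) and 0 lower, against 1.05% of 21095 genes (0.773% higher and 0.280% lower). With all 6 libraries, only Kcnj9 passed the filter through its null libraries alone, so its difference was in part chosen by the filter. Fewer cells that express a gene and less RNA per cell cannot be told apart in these bulk samples.

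The tested members lay mostly above 0 on the fold change scale. Log2 fold changes, given as null minus wild type, were above 0 for 45 and below 0 for 10 of the 55, with a median of 0.36 against 0.00 over all tested genes. The groups did not overlap for 12 members that were higher and 2 (Kcna3 and Kcnk6) that were lower in null, 25.5% against 22.0% of all tested genes (11.4% higher and 10.6% lower). By role, 21 of 24 voltage-gated genes lay above 0 (median 0.48), as did 6 of 7 inward rectifiers (0.16), 4 of 7 K2P genes (0.29), 8 of 8 calcium- or sodium-activated genes (0.33) and 6 of 9 auxiliary genes (0.13). For the family as a whole this leaning rested largely on the wild type libraries 1 and 2. A further fit took the range of sample-name numbers as a term, so wild type replicate 3 is the only wild type library compared with the null ones. In it 30 members lay above and 25 below 0, with a median of 0.04. Voltage-gated genes still lay mostly above 0 there (18 of 24, median 0.17). The medians of the other classes were below 0, from -0.25 for K2P to -0.07 for auxiliary genes.

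Among Shaker-type genes, Kcna1, a channel of axons, stood at 6.28, 5.46 and 10.6 CPM in wild type replicates 1, 2 and 3 and at 15.7, 15.5 and 16.1 CPM in the null libraries. All null libraries lay above all wild type ones, and wild type replicate 3 lay between the others. The log2 fold change was 1.14 ± 0.21 (SE, adjusted p = 0.0797, edgeR), with a 95% interval of 0.65 to 1.63. It was 0.57 with the sample-name term and 1.42 without wild type replicate 3 (adjusted p = 6.02e-08).

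Kcna2 stood at 128, 125 and 248 CPM in wild type and at 296, 283 and 248 in null. Wild type replicate 3 had about the level of null replicate 3, so the groups overlapped. Its log2 fold change was 0.73 ± 0.28 (SE, adjusted p = 0.254), with 0.15 under the sample-name term and 1.119 without wild type replicate 3 (adjusted p = 5.66e-08). Kcna6 was scarcer, with 6.74, 3.58 and 21.2 CPM in wild type and 23.6, 23.3 and 26.1 in null. Wild type replicate 3 again lay near the null libraries, here just below all of them. Its log2 fold change of 1.35 ± 0.62 (adjusted p = 0.313) was 0.20 with the sample-name term and 2.22 without wild type replicate 3. Kcna4, a rapidly inactivating member, was scarce, at 0.918 ± 0.152 CPM in wild type and 1.85 ± 0.54 in null (log2 fold change 1.05 ± 0.29, adjusted p = 0.156).

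Kcna3, a Shaker-type channel best known in lymphocytes and microglia, differed in the opposite direction although it is a neighbour of Kcna2 on chromosome 3 (107036162 to 107038129, mm10, against 107090883 to 107115005). It had 15.0, 15.1 and 12.5 CPM in wild type and 9.96, 11.1 and 11.8 in null, so its groups did not overlap. The log2 fold change was -0.39 ± 0.12 (SE, adjusted p = 0.177), with -0.19 under the sample-name term and -0.46 without wild type replicate 3 (adjusted p = 0.00157). Kcna3 and Kcna6 fell outside the rule for named genes and were picked after their values were seen.

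Kcnc1 and Kcnd3, the voltage-gated genes with the highest levels, differed little between the groups, and Kcnd2 differed more. Kcnc1 had 282, 258 and 245 CPM in wild type and 278, 271 and 257 in null, with full overlap of the groups. Its log2 fold change was 0.04 ± 0.07 (SE, adjusted p = 0.786), and the 95% interval, from -0.13 to 0.20, held no change of 1.5-fold in either direction. Kcnd3 had 240.1, 224 and 188 CPM in wild type and 226, 212 and 221 in null, with a log2 fold change of 0.01 ± 0.09 and an interval of -0.20 to 0.22. Both signs turned without wild type replicate 3, to -0.01 and -0.09. Kcnd2 stood at 56.8, 52.7 and 87.3 CPM in wild type and at 86.8, 86.7 and 95.9 in null, so that wild type replicate 3 lay inside the null range. Its log2 fold change was 0.47 ± 0.18 (adjusted p = 0.241), 0.04 with the sample-name term and 0.71 without wild type replicate 3 (adjusted p = 3.27e-07).

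**Figure D2:**
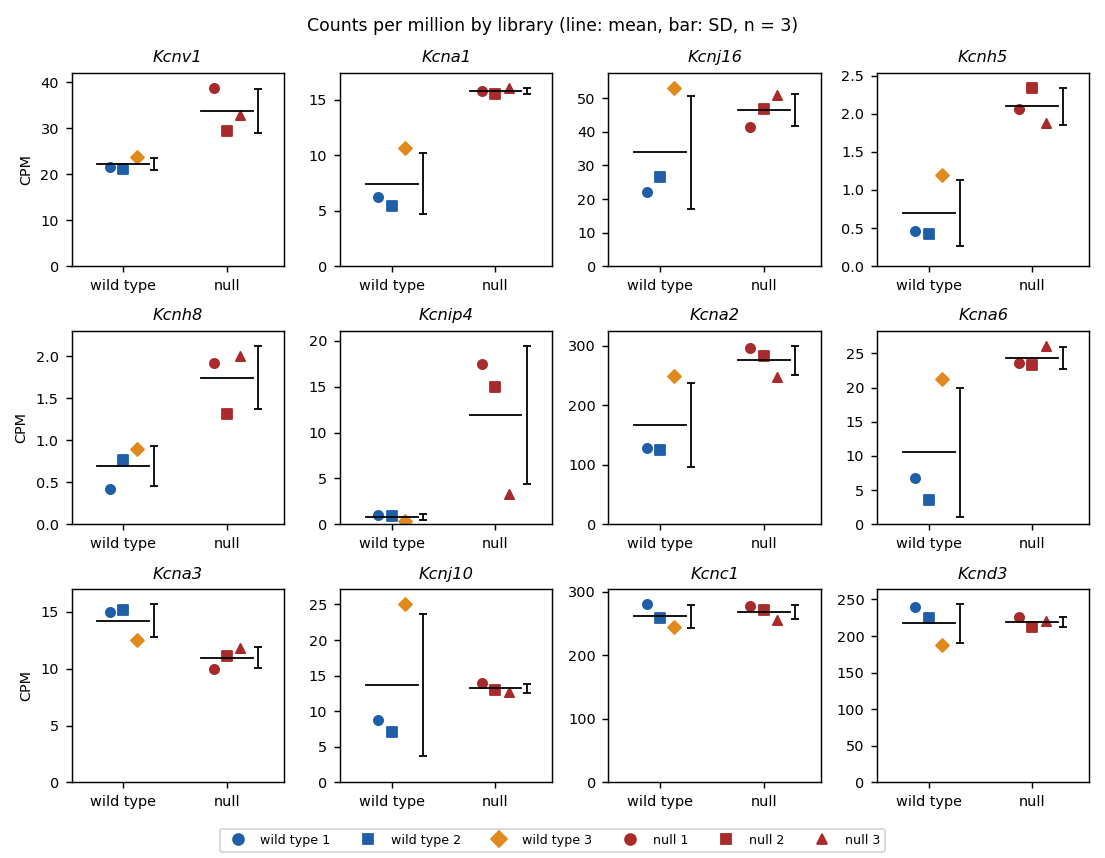
CPM of 12 potassium channel genes by library, with the group mean as a line and the SD (n = 3) as a bar, and orange diamonds for wild type replicate 3. The groups do not overlap for Kcnv1, Kcna1, Kcnh5, Kcnh8, Kcnip4, Kcna6 and Kcna3, and wild type replicate 3 lies near the null libraries for Kcna2 and Kcna6 and above them for Kcnj10 and Kcnj16.

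Kcnv1 had the smallest p among the members. It encodes a silent subunit, which forms no channel of its own but modifies Shab-type channels. Its values were 21.7, 21.2 and 23.8 CPM in wild type and 38.9, 29.5 and 32.9 in null, with no overlap and with the wild type libraries close together. The log2 fold change was 0.61 ± 0.11 (SE, adjusted p = 0.0621, edgeR) with a 95% interval of 0.36 to 0.86. The estimate varied little, at 0.50 with the sample-name term and 0.65 without wild type replicate 3 (adjusted p = 0.000225).

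Of the ether-a-go-go family, Kcnh5 and Kcnh8 were scarce in every library and had higher values in null. Kcnh5 had 0.465, 0.426 and 1.19 CPM in wild type and 2.07, 2.34 and 1.87 in null (log2 fold change 1.79 ± 0.35, adjusted p = 0.0828). Kcnh8 had 0.426, 0.767 and 0.893 CPM in wild type and 1.93, 1.31 and 2.01 in null (1.41 ± 0.32, adjusted p = 0.117). In neither gene did the groups overlap, and wild type replicate 3 was the highest of the wild type libraries in both. With the sample-name term the log2 fold changes were 0.81 and 0.97. Without wild type replicate 3 they were 2.21 and 1.56 (edgeR, adjusted p = 1.6e-05 and adjusted p = 0.000975). In that last fit Kcnh5 passed the filter on low counts through its null libraries alone, so its difference there was in part chosen by the filter.

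Kcns3, a silent subunit picked after its values were seen, had 0.0775, 0.128 and 1.09 CPM in wild type, which stood for 2, 3 and 11 counts. The null libraries had 0.987, 0.469 and 0.223 CPM, so wild type replicate 3 was the highest of the 6 and the other wild type libraries the lowest.

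Inward rectifiers included the pair typical of glia. Kcnj10, which buffers potassium in astrocytes and oligodendrocyte precursors, stood at 8.80, 7.08 and 25.1 CPM in wild type and at 13.95, 12.9 and 12.7 in null. Wild type replicate 3 was the highest of the 6 libraries and the other wild type libraries the lowest. The fit over all libraries gave 0.03 ± 0.48 (SE, 95% interval -1.14 to 1.21). With the sample-name term, which sets wild type replicate 3 alone against the null libraries, the log2 fold change of Kcnj10 was -0.93. Without wild type replicate 3 Kcnj10 was called higher in null (0.73 ± 0.12, adjusted p = 0.000116, edgeR).

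Kcnj16 had 22.0, 26.6 and 53.2 CPM in wild type and 41.5, 46.9 and 51.1 in null. Its wild type replicate 3 also topped all libraries, and the log2 fold change was 0.49 ± 0.33 (adjusted p = 0.439), -0.19 with the sample-name term and 0.93 without wild type replicate 3. Kcnj9, a G-protein-coupled rectifier subunit, had 0.155, 0.171 and 0.298 CPM in wild type and 0.470, 0.515 and 0.580 in null (1.45 ± 0.38, adjusted p = 0.143). Those are 3 to 4 counts per wild type library and 10 to 13 per null library.

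Among the 7 tested K2P genes, 4 lay above and 3 below 0. Kcnk10, a leak channel opened by stretch and lipids, had 3.37, 2.13 and 9.72 CPM in wild type and 7.56, 9.18 and 7.94 in null. Wild type replicate 3 was above every null library, and the log2 fold change was 0.84 ± 0.50 (adjusted p = 0.391). Kcnk5, a leak channel sensitive to pH, ran the other way, with 11.3, 10.96 and 6.15 CPM in wild type and 8.79, 6.93 and 7.36 in null (-0.33 ± 0.21, adjusted p = 0.407). Here wild type replicate 3 was the lowest library, and with the sample-name term the log2 fold changes were -0.24 for Kcnk10 and 0.32 for Kcnk5. Without wild type replicate 3 Kcnk10 was called higher (1.56, adjusted p = 4.69e-06) and Kcnk5 lower (-0.54, adjusted p = 0.00188).

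All 8 calcium- or sodium-activated genes were tested. Kcnma1, the pore-forming subunit of large-conductance channels, had 14.496, 13.1 and 28.2 CPM in wild type and 25.2, 22.5 and 25.8 in null. Its fitted log2 fold change was 0.45 ± 0.27 (adjusted p = 0.399), with -0.20 under the sample-name term and 0.82 without wild type replicate 3. Kcnmb4, its auxiliary partner, had 17.1, 15.9 and 16.7 CPM in wild type and 13.9, 15.2 and 17.2 in null, a log2 fold change of -0.10 ± 0.11. So the pore subunit differed between wild type replicate 3 and the other wild type libraries, while its partner stayed within 15.9 to 17.1 CPM. Kcnn4, an intermediate-conductance channel of dividing and blood cells, had 4.11 ± 1.68 CPM in wild type and 4.64 ± 1.14 in null (0.14 ± 0.30).

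Kcnip4, a calcium-binding partner of Shal-type channels, had the largest fold change of the members. It stood at 1.01, 0.938 and 0.397 CPM in wild type and at 17.5, 15.0 and 3.34 in null, so 2 null libraries carried most of the difference. The log2 fold change was 3.79 ± 0.75 (SE, adjusted p = 0.12, edgeR), with a 95% interval from 1.95 to 5.63. Without null replicate 3 it was the only member called (4.24, adjusted p = 0.00523), where 0.237% of all genes were (0.230% higher and 0.00696% lower). With the sample-name term it was 4.88, and without wild type replicate 3 it was 3.60 (adjusted p = 0.107). Kcnip3, at a far higher level, had 63.1, 51.5 and 120.5 CPM in wild type and 104.0, 100.7 and 114.1 in null. Its fitted log2 fold change was 0.46 ± 0.32 (adjusted p = 0.45), -0.18 with the sample-name term and 0.89 without wild type replicate 3. Kcne1l, an X-linked accessory subunit, had 9.78 ± 2.80 CPM in wild type and 10.4 ± 1.96 in null (0.13 ± 0.21, adjusted p = 0.737).

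**Figure D3:**
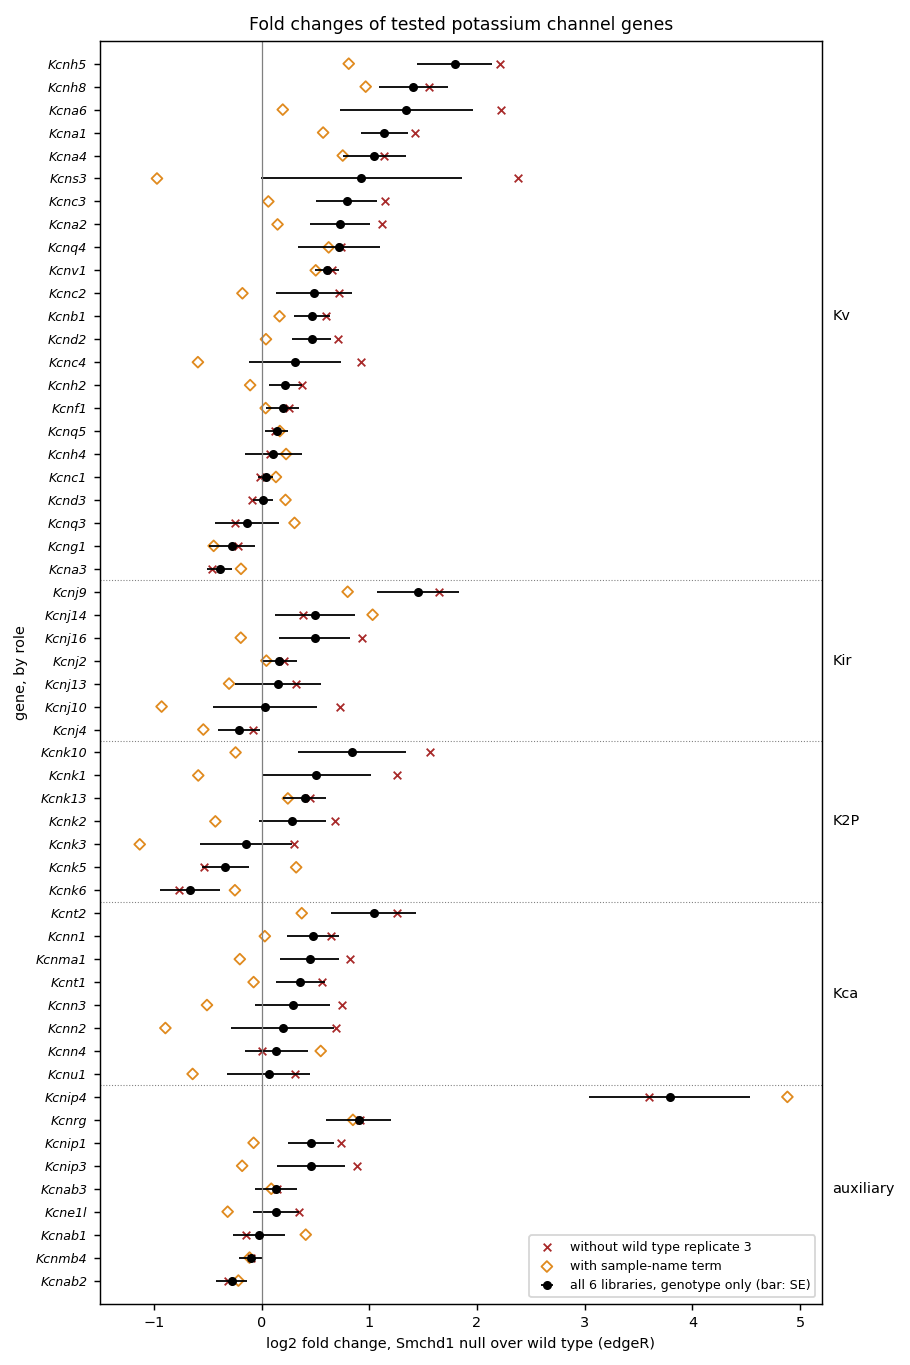
Log2 fold change, null over wild type, of 54 of the 55 tested potassium channel genes, ordered by role, from the edgeR fit over all 6 libraries (black, with SE), without wild type replicate 3 (red crosses) and with the sample-name term (orange diamonds). Red crosses lie mostly right of the black points and orange diamonds mostly left, while Kcnv1 and Kcnrg hold nearly the same place in all 3 fits.

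Leaving out wild type replicate 3 changed the count of calls in this family. Of 57 members tested without it, 27 were called higher and 2 lower in null, 50.9% where 39.2% of all tested genes were called (19.7% higher and 19.4% lower). The filter on low counts was rerun on the remaining libraries. Kcnh5, Kcnj9 and Kcns3, among the 27, then passed it through null libraries alone, so their calls were in part chosen by the filter. The 27 comprised 13 voltage-gated, 3 inward rectifier, 3 K2P, 5 calcium- or sodium-activated and 3 auxiliary genes, and the 2 lower ones were Kcna3 and Kcnk5. In the fit without wild type replicate 3, genotype and the range of sample-name numbers coincide, so differences by either cannot be told apart. Leaving out wild type replicate 1 or 2 gave 0 calls. Wild type replicate 3 lay nearer to the null mean than to the mean of wild type replicates 1 and 2, on the log2 CPM scale, for 37 of the 55 members (67.3%). The same held for 69.4% of all tested genes, so the family is near the background in this respect. The summed RPKM of the 93 members was 190.3 and 176 in wild type replicates 1 and 2. It was 247 in wild type replicate 3 and 246 to 249 in the null libraries. By role, the voltage-gated sum of wild type replicate 3 lay below the null libraries (129 against 138 to 142 RPKM). Its sums lay above them for inward rectifiers (22.9 against 17.2 to 19.0), K2P genes (13.4 against 11.1 to 11.7) and auxiliary genes (73.6 against 66.5 to 71.3). The calcium- or sodium-activated sum lay within the null range.

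**Figure D4:**
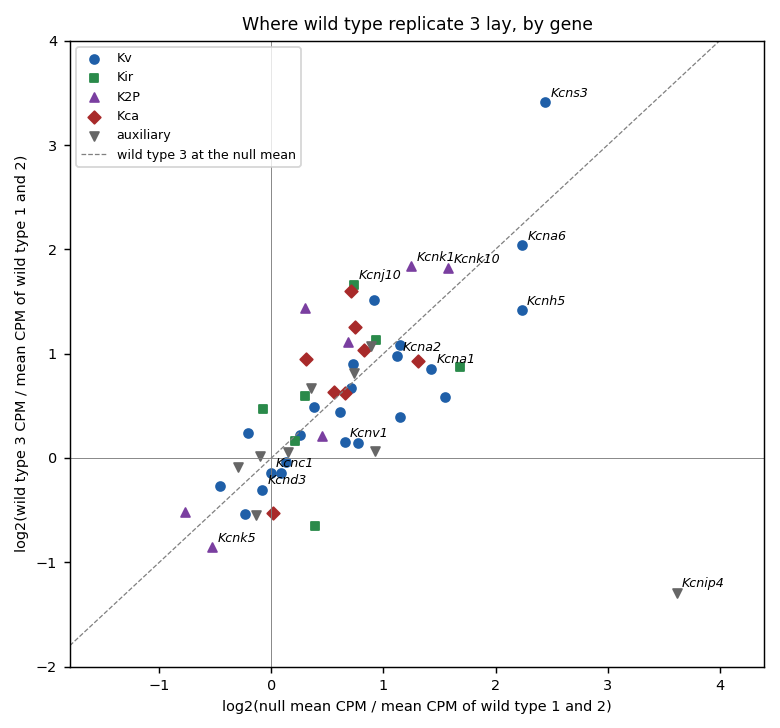
For 54 of the 55 tested genes, log2 of the null mean over the mean of wild type replicates 1 and 2 (x axis) against log2 of wild type replicate 3 over the same mean (y axis), both from CPM, with symbols by role. Points on the dashed line have wild type replicate 3 at the null mean; Kcna2, Kcna6, Kcnk10 and Kcnj10 lie near or above it, and Kcnip4 and Kcnv1 lie below it.

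Oligodendrocyte lineage and astrocyte marker sums were highest in wild type replicate 3. The 13 oligodendrocyte lineage markers summed to 1271 and 1173 CPM in wild type replicates 1 and 2. They summed to 1698 CPM in wild type replicate 3 and to 1498 to 1592 CPM in null. Olig1 and Olig2 held most of that sum, at 650 and 465 CPM in wild type replicate 1 and 772 and 527 in replicate 3. Olig2 and the astrocyte marker Sox9 were also listed as stem cell markers. With all libraries 0 of 12 tested lineage markers were called, where 0.577% of all tested genes were. Without wild type replicate 3, 11 of 12 were called higher in null, where 39.2% of all tested genes were called (19.7% higher and 19.4% lower). Pdgfra, the receptor of oligodendrocyte precursors, had 17.1, 18.3 and 167 CPM in wild type and 112.6, 128 and 137 in null. The 10 astrocyte markers summed to 537 and 556 CPM in wild type replicates 1 and 2, 624 CPM in replicate 3 and 519 to 551 CPM in null. Single astrocyte markers ran in both directions. Slc1a2 had 16.1, 16.2 and 53.5 CPM in wild type replicates 1, 2 and 3. Gja1 had 91.1, 106 and 60.2 CPM there, and Glul had 139, 142 and 112. Of 9 astrocyte markers tested, 0 were called with all libraries. The fit that dropped wild type replicate 3 put 6 above and 2 (Gja1 and Glul) below 0 among its calls, against the same 39.2% of all tested genes. In that fit the markers Gfap, Gpr17 and Mbp passed the filter on low counts through their null libraries alone. Of the 15 neuronal markers 13 were tested, with a median log2 fold change of 0.31. With all libraries 1 of them, Nefl, was called higher. Against the 39.2% of all tested genes called without wild type replicate 3, that fit called 7 of these neuronal markers higher and 3 lower. Their summed level ran the other way, at 1502 to 1537 CPM in wild type and 1416 to 1455 in null. In that sum wild type replicate 3 lay between the other wild type libraries. Map2 alone held most of the sum, at 1101, 1094 and 1058 CPM in wild type and 967, 978 and 999 in null. The sum therefore says little about the other neuronal markers. The part of such cells in the levels of Kcnj10, Kcnj16 or the other members was not tested. Microglial and vascular markers summed to 1.86 to 4.96 CPM in every library, with Tmem119 and Cdh5 at 0.

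Of 40 other genes of potassium handling (among them pumps, cotransporters and channel partners), 27 were tested, and 0 were called higher and 0 lower. At an unadjusted p under 0.05 edgeR counted 5 higher and 1 lower, where 18.6% of all tested genes passed (9.54% higher and 9.05% lower). Without wild type replicate 3 it called 12 higher and 4 lower, where 39.2% of all tested genes were called (19.7% higher and 19.4% lower). Dpp10, an auxiliary subunit of Shal-type channels, had 0.233, 0.341 and 1.29 CPM in wild type and 3.10, 2.86 and 3.08 in null (log2 fold change 2.61 ± 0.46, adjusted p = 0.0617). Its groups did not overlap, and the log2 fold change was 1.22 with the sample-name term and 3.38 without wild type replicate 3 (edgeR, adjusted p = 2.11e-07). In that last fit Dpp10 passed the filter on low counts through its null libraries alone, so its difference there was in part chosen by the filter. The potassium-chloride cotransporter genes Slc12a7 (21.2 ± 3.04 and 15.1 ± 0.77 CPM, -0.50 ± 0.12) and Slc12a5 (1.65 ± 0.29 and 2.52 ± 0.03 CPM, 0.65 ± 0.20) lay on opposite sides of 0 and were not called with all libraries. Without wild type replicate 3 they were called lower (-0.61, adjusted p = 3.1e-05) and higher (0.76, adjusted p = 0.0072).

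The filter on low counts removed the remaining 38 members. Kcne3, Kcnj1 and Kcnk16 had 0 counts over all libraries, which allows up to 0.0241 CPM (3 counts over the pooled effective depth, counting error only). Another 15 had between 1 and 10 counts in total, among them the cardiac accessory subunit Kcne1 and the pericyte-associated rectifier Kcnj8. The other 20 had more than 10, up to 65 for Kcnj11, the pore of ATP-sensitive channels. The edgeR fit with no filter took in 90 members, all but the 3 at 0, and called none of those that the filter removes. Few counts limit what difference could be detected in these genes, so the lack of a call says little about them.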

How the data were processed

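The authors deposited raw counts per Entrez gene with gene lengths, 1 library per file. The build (mm10) and the programs CASAVA (1.8.2), limma (3.22.0), edgeR (3.8.2) and featureCounts are named in the submitters' processing notes. Not given in the sources used here are the aligner, the annotation and how shared reads were handled. Symbols and coordinates came from a RefSeq table of GRCm38.p6, which matched 25275 of 27179 IDs, and exon overlaps from GENCODE on the same build. Members and lists were chosen with earlier results of these data known.

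Counts were fitted with edgeR 4.0.16 in R 4.3.3 (filterByExpr, TMM, robust quasi-likelihood F-test, two-sided, genotype only, 3 libraries a group), with Benjamini-Hochberg adjustment over 14207 genes at 0.05. Each SE is the fold change divided by the root of its F statistic. The script was tested on simulated data. No replicates were near-identical libraries: the mean chi-square per gene was 7.85 to 17.4 for pairs without wild type replicate 3. It was 1759 and 1685 for wild type replicates 1 and 2 against replicate 3.

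Named genes were the 8 members with the smallest p, the 8 with the highest mean RPKM, the 2 highest of each role class, any called member, and the 4 related genes with the smallest p. Of the genes this rule names, 2 are not reported here. Alternatives were DESeq2 1.42.0, limma-voom (limma 3.58.1) with and without quality weights, other scalings and filters, thinning, leaving out records above 1% of a library, a replicate block, a sample-name term and each library left out. Reads carry no molecular identifiers, so floors cover counting error only.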

Additional observations from a re-analysis of the deposited data

How the results depend on the processing

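The counts of 0 higher and 0 lower members held with RLE or upper quartile scaling, without robust moderation, with the stricter filter, with thinning and without records above 1% of a library. Members called higher numbered 5 with DESeq2, 3 with limma-voom, 26 with limma-voom with sample quality weights (which called 3 lower) and 4 with no filter. No calls are counted and no adjusted p is given for the sample-name term, whose comparison rests on a single wild type library. Leaving out single libraries gave 0 to 27 higher and 0 to 2 lower, with 27 and 2 without wild type replicate 3 and 1 higher, Kcnip4, without null replicate 3. The replicate block gave 2 higher, among them Kcnip4, and 0 lower (0.380% of all tested genes). The numbers are not known to pair the samples: deviations of same-numbered libraries correlated at -0.0059, 0.0275 and -0.0411, and 1 of 3 correlated best with its own number. The cause of these differences was not tested.

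Of 376 values of the 21 members under the naming rule under 18 alternatives, 313 kept direction and side of the threshold, 43 passed it and 20 turned sign. The sample-name term turned Kcne1l (-0.31), Kcnip3 (-0.18), Kcnj10 (-0.93), Kcnj16 (-0.19), Kcnk10 (-0.24), Kcnk5 (0.32) and Kcnma1 (-0.20). Quality weights turned Kcnd3 (-0.0673) and Kcnn4 (-0.0040), and DESeq2 turned Kcnj10 (-0.0448). Leaving out single libraries gave ranges across 0 for Kcnc1 (-0.0112 to 0.0916), Kcnd3 (-0.0856 to 0.0856), Kcne1l (-0.0125 to 0.35), Kcnj10 (-0.29 to 0.73) and Kcnn4 (-0.0594 to 0.56). Among scarce members such as Kcnj9 or Kcnh5, few counts limit the precision.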
